A study of Mus musculus with 12 samples.

Results

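The Tcf/Lef factors Lef1, Tcf7, Tcf7l1 and Tcf7l2, the Wnt target genes Axin2, Sp5 and Nkd1, and Ctnnb1, which encodes beta-catenin, were followed as 8 of the 35580 genes measured by sequencing of mRNA libraries. The genes were named for their place in the pathway, except that Lef1 was picked from its values in these libraries, for a delayed rise in KO cells, so its levels are described here without a test. Mouse R1 embryonic stem cells (ESCs), WT or with a homozygous Cidea deletion (Cidea -/-, KO), were sampled as ESCs grown in 10% FBS with LIF (0 h) and as 3D spheroids in 15% FBS without LIF, in growth factor-reduced matrigel, for 24 h and 48 h. The labels call the spheroids embedded, while the study's methods describe an on-top format, on a matrigel coat, for molecular work. Each of the 6 groups had 2 libraries, and the 12 libraries held 28998188 to 38509860 estimated counts each. CIDEA is a lipid droplet protein that promotes droplet fusion, and the comparison of the genotypes asked what its loss changes as pluripotent cells leave the naive state and form a lumen. Both genotypes share the R1 background and the culture change, and a single KO clone supplied every KO library, so the loss of Cidea and other properties of that clone cannot be told apart.

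Secreted Wnt proteins bind Frizzled receptors and the co-receptors Lrp5 and Lrp6, which stops the destruction complex (Axin, APC, GSK3 and casein kinase 1) from marking beta-catenin for degradation. Stabilised beta-catenin enters the nucleus and joins Tcf/Lef proteins, which bind DNA through an HMG box, while without it these factors recruit Groucho/TLE co-repressors. In mouse ESCs Tcf7l1 (also called Tcf3) is known chiefly as a repressor that limits pluripotency genes, whereas Tcf7 (Tcf1) and Lef1 are known mainly as activating partners of beta-catenin.

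In GRCm38 coordinates of the GENCODE annotation, Lef1 lies at chr3:131110471-131224356 on the plus strand and Tcf7 at chr11:52252371-52283014 on the minus strand. Tcf7l1 lies at chr6:72626378-72789254 (minus) and Tcf7l2 at chr19:55741820-55933654 (plus). Among the targets, Axin2 lies at chr11:108920349-108950783, Sp5 at chr2:70474923-70477729 and Nkd1 at chr8:88521354-88594884, all on the plus strand, as does Ctnnb1 at chr9:120929216-120960507.

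Lef1 has 8 annotated transcripts, and 2 of them, Lef1-202 and Lef1-204, held 48.6% and 41.1% of its estimated counts over all libraries. They differ by one exon of 41 bases at chr3:131204933-131204973, present in Lef1-202 and skipped in Lef1-204, which moves the stop codon. Lef1-202 encodes 369 codons and Lef1-204 encodes 384. A further exon of 84 bases at chr3:131191023-131191106 is carried by Lef1-201 and Lef1-203. Both are printed below on the plus strand, since the transcript shares described later rest on reads that cross or skip them; of the 41-base exon only the 35 coding bases are shown, with the stop codon of Lef1-202 in capitals.
Exon of Lef1-202 skipped in Lef1-204, chr3:131204933-131204967: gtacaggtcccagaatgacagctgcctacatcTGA
Exon of Lef1-201 and Lef1-203, chr3:131191023-131191106: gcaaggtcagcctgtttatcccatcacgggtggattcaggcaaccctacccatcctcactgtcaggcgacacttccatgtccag

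The promoter windows of RefSeq (GRCm38.p6, 250 bases before to 50 after a start site) were searched on both strands for the Tcf/Lef core motifs CTTTGAT and CTTTGTT, which do not overlap each other where found. All 8 genes matched, with 14 windows in all, and a motif was present in 2 of them, one of Sp5 and one of Tcf7l2. CTTTGAT was present in 3.7% of all 32851 windows of that length, CTTTGTT in 5.9% and either in 9.3%. The 250 bases before the Sp5 start (plus strand) are printed as the one window with both motifs, in capitals, CTTTGAT from position -104 and the reverse complement of CTTTGTT from position -222 relative to the start. These matches are a description of the sequence and binding was not measured.
Sp5 upstream, chr2:70474673-70474922: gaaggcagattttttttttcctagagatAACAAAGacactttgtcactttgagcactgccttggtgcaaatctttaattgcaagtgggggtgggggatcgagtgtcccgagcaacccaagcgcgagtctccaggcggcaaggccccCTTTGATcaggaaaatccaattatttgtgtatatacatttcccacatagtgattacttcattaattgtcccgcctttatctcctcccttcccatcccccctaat

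Cidea itself had 20 to 117 estimated counts in each WT library and 0 in each of the 6 KO libraries, where a count of 0 allows up to 0.0779 to 0.1035 CPM. One library, KO 24 h replicate 1, stood apart: 15650 genes had a value above 0 in it, against 17730 to 19944 in the other 11. Summed levels of 6 pluripotency markers were 2085 to 2896 CPM, while 6 primitive streak and mesoderm markers summed to 1.62 to 8.51 CPM. The 6 fibroblast feeder markers summed to 15.9 to 23.9 CPM in WT and 8.51 to 16.6 CPM in KO, with Postn at 0 in every library. The study's methods describe ESC culture on gelatine-coated plates and name no feeder layer. In these bulk samples, fewer cells of a type and less RNA per cell cannot be told apart.

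Lef1 rose from at most 4.61 CPM (counts per 1000000, scaled by TMM size factors) in ESCs to at least 47.6 CPM in 48 h spheroids of both genotypes, and KO cells started lower. WT ESCs gave 4.61 and 3.09 CPM, WT spheroids 26.6 and 26.0 CPM at 24 h and 47.6 and 60.8 CPM at 48 h. KO ESCs gave 0.73 and 1.16 CPM, from 21 and 33 estimated counts, followed by 15.8 and 12 CPM at 24 h and 66.3 and 58.6 CPM at 48 h. Both KO libraries lay below both WT libraries at 0 h and at 24 h, and the genotypes overlapped at 48 h.

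The mean Lef1 level in KO was 0.245 of WT at 0 h, 0.529 at 24 h and 1.15 at 48 h. Read within a genotype, the mean rose 6.82-fold in WT and 14.7-fold in KO over the first 24 h, then 2.06-fold in WT and 4.49-fold in KO. So the KO libraries were behind WT in level at 0 h and 24 h while their ratio between successive times was the larger one in both intervals. The later WT change depended on the scale: it was 1.04 log2 units on counts and 0.40 with transcript lengths as offsets, and WT libraries gave 24.7 and 14.4 TPM at 24 h and 20.9 and 29.8 TPM at 48 h, which overlap. In order of mean level the groups ran KO 0 h, WT 0 h, KO 24 h, WT 24 h, WT 48 h and KO 48 h, and among these neighbours the libraries of the last pair overlapped in CPM and the others did not. The KO value of 15.8 CPM at 24 h is from the library that stood apart.

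**Figure D1:**
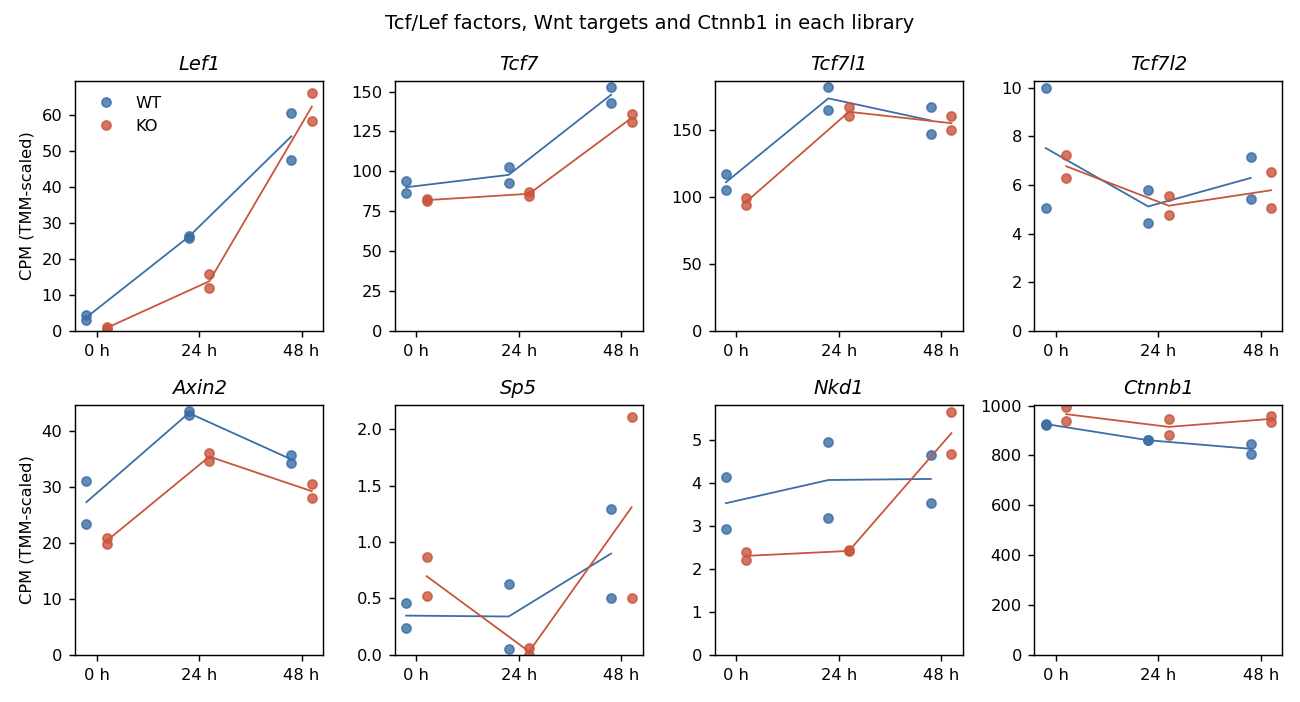
TMM-scaled CPM of the 8 genes (y axis, from 0) at 0 h, 24 h and 48 h (x axis) in WT (blue) and KO (red); points are libraries and lines join group means. Lef1 climbs from 0.73 to 4.61 CPM at 0 h to 47.6 to 66.3 CPM at 48 h, Tcf7l1 and Axin2 step up at 24 h, Tcf7 steps up at 48 h, and Ctnnb1 stays between 807 and 994 CPM.

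Tcf7l1, the repressor of the family, rose in the first 24 h in both genotypes and then held its level. It gave 117 and 105 CPM in WT ESCs, 182 and 165 CPM at 24 h and 147 and 167 CPM at 48 h. KO libraries gave 99.4 and 93.7 CPM, then 167 and 160 CPM, then 150 and 160 CPM. The 0 h libraries lay below all spheroid libraries in each genotype, and KO overlapped WT at 24 h and 48 h.

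The rise of Tcf7l1 from 0 h to 24 h was 0.64 ± 0.089 log2 units (SE) in WT, with an adjusted p of 3.4e-05 in edgeR's quasi-likelihood test over all genes, and 0.76 ± 0.089 in KO (adjusted p = 3.8e-06). Both calls held under all alternatives tried. From 24 h to 48 h Tcf7l1 gave -0.15 in WT (adjusted p = 0.41) and -0.08 in KO (adjusted p = 0.68).

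Tcf7, which encodes an activating family member, stayed level for 24 h and rose in the next 24 h. In WT it gave 86.2 and 94.0 CPM at 0 h, 92.7 and 103 CPM at 24 h and 143 and 153 CPM at 48 h. In KO it gave 82.7 and 81.4 CPM, 87.1 and 84.9 CPM, and 136 and 131 CPM. At every time both KO libraries lay below both WT libraries, by a small margin.

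The 24 h to 48 h change of Tcf7 was 0.60 ± 0.088 log2 units in WT (adjusted p = 0.00016, edgeR) and 0.63 ± 0.088 in KO (adjusted p = 5.9e-05), and both calls held under all alternatives. The KO to WT difference was -0.13 at 0 h, -0.19 at 24 h and -0.15 at 48 h, with adjusted p-values of 0.69, 0.39 and 0.79. Averaged over the times it was -0.16 ± 0.051 (adjusted p = 0.086), which passed with DESeq2 (adjusted p = 0.034) and with at least 10 counts in every library (adjusted p = 0.04).

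Tcf7l2, the family member best known from the intestinal epithelium, was low throughout, at 4.44 to 9.99 CPM. WT libraries gave 9.99 and 5.04 CPM at 0 h, 5.80 and 4.44 CPM at 24 h and 7.16 and 5.42 CPM at 48 h. KO libraries gave 6.29 and 7.25, 4.75 and 5.55, and 5.05 and 6.52 CPM. The genotypes overlapped at each time, and none of the 10 comparisons called it.

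Levels of different genes were compared only per length, in TPM. Tcf7l1 and Tcf7 together made up most of the family in every library, and the mean share of Lef1 grew with time. In WT the mean share of Tcf7l1 in the summed TPM of the 4 factors was 47.3% at 0 h, 53.4% at 24 h and 41.1% at 48 h, and in KO 47.0%, 57.9% and 42.0%. The share of Tcf7 was 45.7%, 34.7% and 45.7% in WT and 49.0%, 35.5% and 42.5% in KO.

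Lef1 held a mean of 2.01% of the family's TPM in WT ESCs, 9.81% at 24 h and 11.3% at 48 h. In KO it held 0.375%, 4.45% and 13.5%. Tcf7l2 fell from 5.04% to 1.9% in WT and from 3.6% to 1.94% in KO as the others grew, with no called change of its own level. The summed TPM of the 4 factors averaged 137 in WT ESCs, 198 at 24 h and 224 at 48 h, against 119, 169 and 209 in KO. Since Lef1 is one of the 4, these shares carry its choice and are given without a test.

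**Figure D2:**
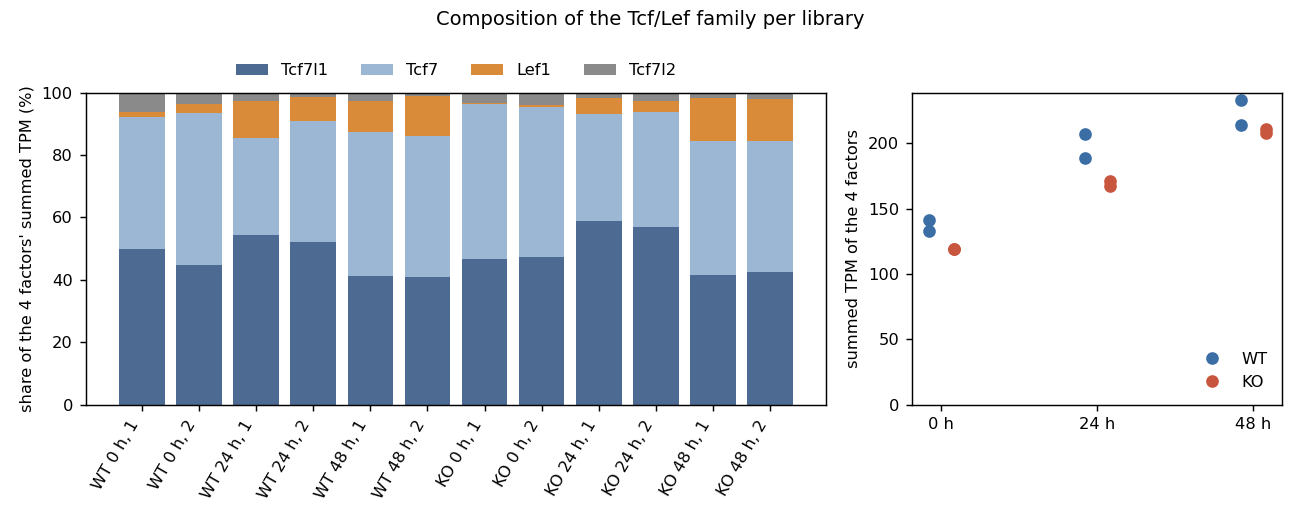
Left, share of each Tcf/Lef gene (%) in the summed TPM of the 4 genes, 1 bar per library labelled by genotype, time and replicate; right, that summed TPM per library (WT blue, KO red). Lef1 is 0.324% to 2.62% of the sum at 0 h and 9.76% to 13.9% at 48 h, and the sum rises from 119 to 141 TPM at 0 h to 208 to 233 TPM at 48 h.

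The Lef1 transcripts were assigned unevenly between libraries. Lef1-202 held 56.1% and 61.8% of the estimated counts of Lef1 in WT ESCs, 56.0% and 43.2% at 24 h and 76.3% and 54.1% at 48 h. In KO it held 42.5% and 100% at 0 h, 0% and 25.5% at 24 h, and 46.7% and 39.4% at 48 h. The KO values at 0 h rest on 21 and 33 counts, and KO 24 h replicate 1, the library that stood apart, put 98.7% of its 539 counts on Lef1-204.

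As a share of Lef1's TPM, Lef1-202 averaged 44.1% over the WT libraries and 39.6% over the KO libraries. The difference, -4.5 percentage points, did not pass a two-sided exact permutation test within times (p = 0.787, 216 arrangements, smallest possible p 0.00926). With 1 library left out in turn it ran from -15.4 to 6.5, changing sign without WT 0 h replicate 1 (0.9), WT 48 h replicate 1 (0.3) or KO 0 h replicate 1 (6.5). As a share of counts the difference was -15.6 (exact permutation p = 0.241). As a share of TPM among the spheroids alone it was -20.4, with an exact permutation p of 0.0556, the smallest that 36 arrangements allow. That value includes KO 24 h replicate 1, the library that stood apart, where Lef1-202 held 0% of Lef1's TPM.

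Lef1-203 starts at an alternative first exon at chr3:131112797-131112820 and encodes 331 codons, fewer than the 397 of Lef1-201, and it held 7.4% of Lef1's counts. It had counts in 7 of the 12 libraries, up to 18.1% of Lef1 in KO 48 h replicate 2 and 44.0% of the 21 counts in KO 0 h replicate 1. Lef1-208, a transcript of 345 bases with no coding sequence, took 6.1% of the Lef1 counts in WT 24 h replicate 1 but 54.8% of its Lef1 TPM. The Lef1 level of that library was therefore 24.7 TPM against 14.4 TPM in its replicate, although the CPM were 26.6 and 26.0.

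**Figure D3:**
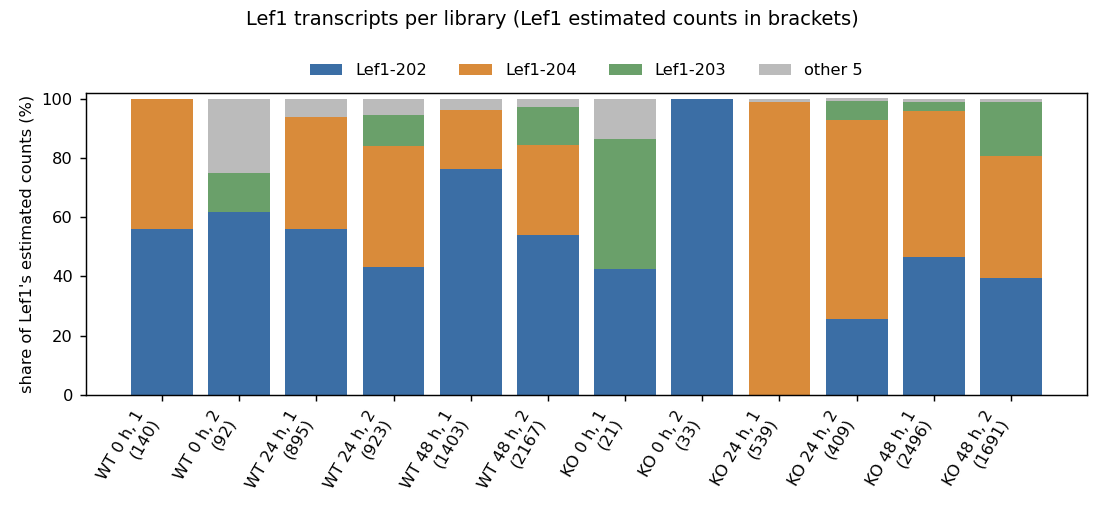
Share of Lef1's estimated counts (%, y axis) assigned to Lef1-202, Lef1-204, Lef1-203 and the other 5 transcripts in each library, with the Lef1 count of the library in brackets. Lef1-202 ranges from 0% in KO 24 h replicate 1 to 100% in KO 0 h replicate 2.

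Tcf7 and Tcf7l1 were steadier at transcript level. Tcf7-201 held 56.9% to 77.1% of Tcf7's TPM and Tcf7l1-201 held 55.3% to 70.8% of Tcf7l1's, with the highest Tcf7-201 share in KO 24 h replicate 1. Tcf7l2 has 22 counted transcripts, and no single one led across the libraries: Tcf7l2-202, with the largest summed share of its counts at 18.3%, ranged from 0% to 74.8%.

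Axin2 encodes a scaffold of the destruction complex and is the standard feedback target of the pathway. It gave 31.2 and 23.5 CPM in WT ESCs, 43.6 and 43.0 CPM at 24 h and 34.3 and 35.7 CPM at 48 h. KO libraries gave 19.9 and 21.0, 34.8 and 36.2, and 28.0 and 30.6 CPM. Axin2 was highest at 24 h in both genotypes, and at each time both KO libraries lay below both WT libraries.

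From 0 h to 24 h Axin2 rose by 0.66 ± 0.14 log2 units in WT (adjusted p = 0.0028, edgeR) and by 0.79 ± 0.14 in KO (adjusted p = 0.0005). Over all genes 7.54% were called higher and 7.47% lower in WT, and 9.24% and 9.33% in KO, beside 2 higher (Axin2 and Tcf7l1) and 0 lower of the 7 genes other than Lef1 in each genotype. The WT call of Axin2 was lost without WT 0 h replicate 2 (0.48, adjusted p = 0.062). Both calls were lost when the mean transcript length of each library entered the fit as an offset (adjusted p = 0.15 in WT and 0.16 in KO) and on log2(TPM + 1) in limma (0.14 and 0.19). Beside this, Axin2-204, a transcript of 826 bases, took 29.8% of Axin2's TPM in WT 0 h replicate 1 and 11.5% in replicate 2, whose Axin2 levels were 17.4 and 8.81 TPM.

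From 24 h to 48 h Axin2 gave -0.31 ± 0.14 in WT (adjusted p = 0.23) and -0.28 ± 0.14 in KO (adjusted p = 0.26). In that interval 1 of the 7 genes was called higher in each genotype, Tcf7, and 0 lower. The shares over all genes were 3.28% higher and 4.86% lower in WT and 4.57% and 5.37% in KO.

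At single times Axin2 in KO minus WT was -0.42 at 0 h, -0.29 at 24 h and -0.26 at 48 h, with SE of 0.14 each and adjusted p-values of 0.26, 0.42 and 0.76. Averaged over the times it was -0.32 ± 0.082 (adjusted p = 0.026), the one call of the 7 genes in a comparison that called 5.03% of all genes. In CPM all 6 KO libraries were below the WT libraries of their time, which restates the values of the fit. How many of all genes separate in this way was not counted. In TPM the genotypes overlapped at 0 h (17.4 and 8.81 in WT, 9.95 and 8.74 in KO). The call was lost with transcript lengths as offsets (-0.40, adjusted p = 0.26), on log2(TPM + 1) (adjusted p = 0.4) and when any of 8 single libraries was left out: WT 0 h replicate 1, either WT library at 24 h or 48 h, either KO library at 0 h, or KO 48 h replicate 1 (-0.25 to -0.33, adjusted p 0.055 to 0.11). The sum of the fibroblast markers was also lower in KO, in cultures for which the methods name no feeder layer, and its relation to the Axin2 difference was not tested.

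Nkd1, an inhibitor that binds Dishevelled and is induced by the pathway, was low. It gave 2.93 and 4.13 CPM in WT ESCs, 4.96 and 3.18 CPM at 24 h and 3.53 and 4.66 CPM at 48 h, and in KO 2.40 and 2.21, 2.43 and 2.41, and 4.67 and 5.65 CPM. In CPM the KO libraries were below WT at 0 h and 24 h and above at 48 h, where the closest were 4.67 and 4.66 CPM. In TPM the genotypes overlapped at 0 h (1.57 and 2.19 in WT, 1.52 and 1.73 in KO). They also overlapped in TPM at 48 h (1.74 and 2.63 in WT, 2.14 and 3.11 in KO). None of this passed: the KO to WT difference was -0.62 ± 0.44 at 0 h (adjusted p = 0.73), -0.75 ± 0.44 at 24 h (adjusted p = 0.51) and 0.33 ± 0.43 at 48 h (adjusted p = 1.0), and the KO change from 24 h to 48 h was 1.09 ± 0.44 (adjusted p = 0.14).

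Sp5, a zinc finger transcription factor and direct target whose upstream window with both motifs is shown above, was close to the limit of detection. WT libraries held 14 and 7 estimated counts of it at 0 h, 21 and 2 at 24 h and 38 and 18 at 48 h. In KO it had 25 and 15, then 0 and 2, then 19 and 61. The 24 h KO libraries lay at or under a floor of 3 counts, so no fold is given, and they overlapped WT 24 h replicate 2.

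The changes of Sp5 in KO did not pass in edgeR (adjusted p = 0.10 from 0 h to 24 h and 0.08 from 24 h to 48 h). DESeq2 called the first (adjusted p = 0.024), and the second passed without a filter on low counts (adjusted p = 0.042). Both passed when KO 24 h replicate 2 was left out (adjusted p = 0.037 and 0.027), which leaves only the library that stood apart, with 0 counts.

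Ctnnb1, the transcript of beta-catenin, was abundant and flat: 924 and 928 CPM in WT ESCs, 861 and 861 CPM at 24 h, 846 and 807 CPM at 48 h, and in KO 937 and 994, 882 and 947, and 933 and 960 CPM. The KO libraries were above the WT libraries at each time, by 0.06 ± 0.059, 0.09 ± 0.059 and 0.20 ± 0.059 log2 units (adjusted p = 0.87, 0.59 and 0.22). Averaged over the times the difference was 0.11 ± 0.034 (adjusted p = 0.061). It passed with DESeq2 (adjusted p = 0.012) and without KO 24 h replicate 1 (adjusted p = 0.027). The RNA level says nothing of beta-catenin protein, which the pathway controls by degradation.

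At single times 0 of the 7 genes was called between the genotypes by edgeR, where 1.26% of all genes were called at 0 h, 1.46% at 24 h and 0.671% at 48 h. At an unadjusted p under 0.05 there were 2 at 0 h, 1 at 24 h and 1 at 48 h, and DESeq2 called 0, 0 and 1. Of all 17424 genes tested, 1745, 2177 and 1349 had an unadjusted p under 0.05 in edgeR. The difference between KO and WT in the change with time was also called for 0 of 7 from 0 h to 24 h and from 24 h to 48 h, with 0 at an unadjusted p under 0.05 and 0 by DESeq2 in both. Over all genes that comparison called 0.0115% and 0.023%, with 1029 and 894 of the 17424 at an unadjusted p under 0.05. The median KO to WT difference over the 7 genes was -0.15, -0.19 and -0.01 log2 units at the 3 times, beside 0.00, -0.02 and 0.00 over all genes tested.

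**Figure D4:**
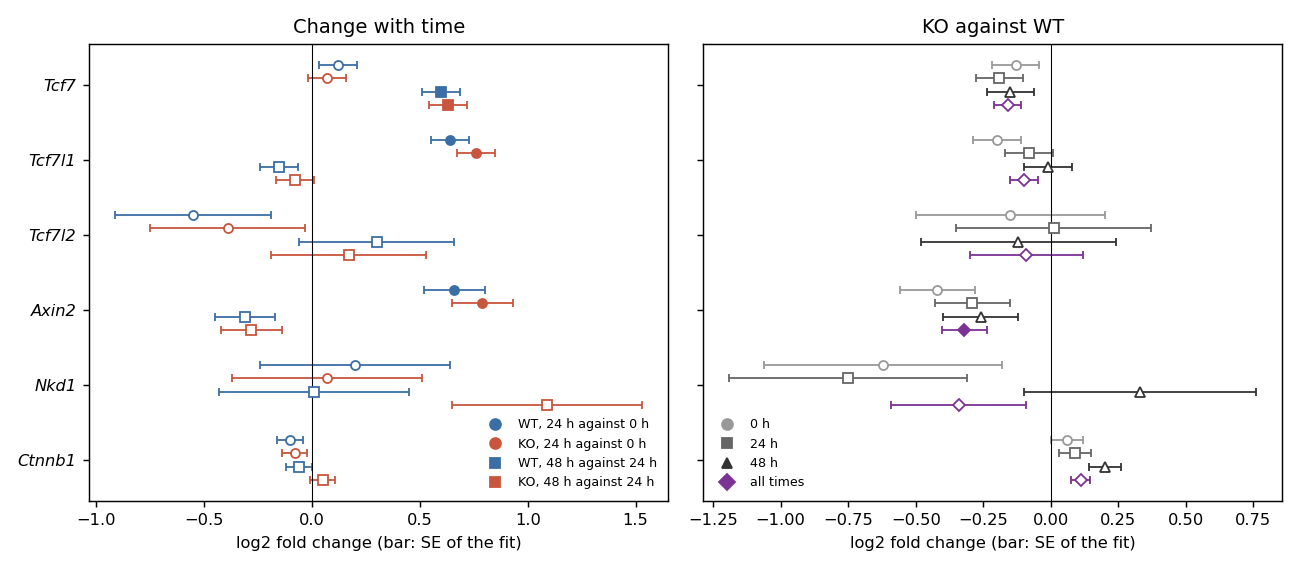
Log2 fold change with the SE of the fit (x axis) for 6 of the genes, left over time within WT (blue) and KO (red), right KO against WT at each time and averaged over them; filled symbols have an adjusted p under 0.05. Lef1 is left out because it was chosen by its values and Sp5 because its counts reach 0; the filled symbols are Tcf7l1 and Axin2 from 0 h to 24 h, Tcf7 from 24 h to 48 h and Axin2 over all times.

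Across the 12 libraries the genes whose log2 CPM followed Lef1 most closely were Igsf9 (Pearson's r 0.989), Irgm1 (0.988), Ptpn13 (0.987), Fzd7 (0.984), Atic (0.982) and Pdzd4 (0.981). These r values describe 12 libraries in 6 groups that share the course of time, and no p is given. Irgm1, an interferon-inducible GTPase, gave 2.77 and 2.48 CPM in WT ESCs against 0.382 and 0.56 CPM in KO ESCs, and 25.5 and 32.5 against 28.8 and 28.3 CPM at 48 h. Fzd7, a Frizzled receptor, gave 83.2 and 75.6 CPM in WT ESCs and 62.5 and 65.9 CPM in KO ESCs, with 205 to 210 and 202 to 214 CPM at 48 h. Among the other 7 genes r with Lef1 was 0.876 for Tcf7l1, 0.799 for Tcf7, 0.727 for Axin2, 0.685 for Nkd1, 0.077 for Sp5, -0.315 for Tcf7l2 and -0.558 for Ctnnb1.

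The wider pathway was read from lists by role, which with the 7 genes hold 122 genes, 114 of them tested. From 0 h to 24 h 12 were called higher and 12 lower in WT, and 13 and 13 in KO, where over all genes 7.54% and 7.47% were called in WT and 9.24% and 9.33% in KO. From 24 h to 48 h 7 were called higher and 10 lower in WT, and 4 and 10 in KO, beside 3.28% and 4.86% of all genes in WT and 4.57% and 5.37% in KO. With single libraries left out the WT totals ran from 15, without WT 24 h replicate 1, to 29 at 24 h, and from 9 to 22 at 48 h. The later WT total was 11 without WT 24 h replicate 1, 9 without WT 48 h replicate 1 and 10 without replicate 2 of either time. Without KO 24 h replicate 1, the library that stood apart, the KO totals were 22 and 13, and without its replicate 2, which leaves that library alone in its group, 42 and 30. Their median change from 0 h to 24 h was 0.04 log2 units in each genotype, beside 0.00 in WT and -0.03 in KO over all genes.

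Of 20 feedback and direct targets, 3 were called higher and 1 lower at 24 h in each genotype, 20.0% of them in both directions together, beside 7.54% of all genes higher and 7.47% lower in WT and 9.24% and 9.33% in KO. Tnfrsf19 (Troy), a receptor of the TNF family, went from 5.44 and 5.10 CPM to 14.3 and 13.4 CPM in WT and from 4.07 and 3.92 CPM to 14.1 and 11.2 CPM in KO. Those changes were 1.39 ± 0.22 (adjusted p = 0.00017) and 1.66 ± 0.23 log2 units (adjusted p = 2.2e-05), the WT call being lost in limma on log2(TPM + 1). Ccnd1, cyclin D1, rose by 0.87 in WT and 0.91 in KO and fell by 0.52 and 0.37 in the next 24 h. Notum, a secreted enzyme that inactivates Wnt proteins, moved the other way and fell in both intervals in both genotypes, with 59.3 and 55.5 CPM in WT ESCs against 19.1 and 27.3 CPM at 48 h, and 72.8 and 56.4 CPM in KO ESCs against 20.2 and 20.1 CPM. The WT fall of Notum at 24 h was lost without any of the 4 libraries compared (-0.43 to -0.56), the WT fall at 48 h without WT 48 h replicate 1, the KO fall at 24 h without KO 0 h replicate 1, and the later KO fall of Ccnd1 without KO 48 h replicate 1 (-0.32 to -0.44). The first and the last of these were also lost with transcript lengths as offsets and in both limma fits on TPM.

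Of 18 receptors, 4 were called higher and 1 lower at 24 h in each genotype, and 4 and 1 in WT and 3 and 1 in KO at 48 h. The all-gene shares were 7.54% and 7.47% in WT and 9.24% and 9.33% in KO at 24 h, and 3.28% and 4.86% in WT and 4.57% and 5.37% in KO at 48 h. Ror1, a receptor of Wnt5a, rose by 2.10 ± 0.38 log2 units in WT and 2.75 ± 0.40 in KO from 1.05 to 1.62 CPM at 0 h. Fzd7 rose by 0.91 and 1.08 at 24 h, and Ptk7, a co-receptor of planar polarity signalling, by 0.50 in each genotype, the WT call of Ptk7 being lost without WT 24 h replicate 1 (0.39 to 0.61). Fzd5 fell, from 185 and 170 CPM in WT ESCs to 56.4 and 60.5 CPM at 48 h, and from 224 and 208 CPM in KO ESCs to 49.7 and 62.1 CPM.

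Among ligands and their secretion, 22 of 25 genes were tested and 1 was called higher at 24 h in each genotype, Porcn, the acyltransferase that lipidates Wnt proteins. None was called lower in WT and 1 in KO. Over all genes 7.54% were called higher and 7.47% lower at 24 h in WT, and 9.24% and 9.33% in KO. Porcn rose by 0.93 ± 0.14 log2 units in WT and 0.90 ± 0.14 in KO, and fell by 0.84 and 0.47 from 24 h to 48 h. The KO fall was lost without KO 24 h replicate 1 or either KO 48 h library (-0.44 to -0.57), with transcript lengths as offsets and in both limma fits on TPM. Of 18 secreted and membrane inhibitors, 13 were tested, and at 24 h 1 was called higher and 4 lower in WT and 0 and 2 in KO, beside the same all-gene shares. Of the 4 lower calls in WT, Dkk3 was lost under 15 of 20 alternatives, Sfrp4 under 5, Shisa2 under 3 and Sfrp1 under 0. Sfrp1, a secreted Frizzled-related antagonist, fell over 48 h, WT libraries going from 212 and 222 to 39.9 and 39.6 CPM and KO libraries from 247 and 247 to 33.5 and 40.7 CPM.

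In the destruction complex list, 1 gene was called higher and 3 lower of 18 at 24 h in WT, 1 and 4 in KO. Csnk1e and Csnk1a1, casein kinases, fell by 0.88 and 0.63 log2 units in WT and by 0.95 and 0.67 in KO, and the adaptor Dvl2 fell by 0.59 and 0.52. Of 20 nuclear partners, 1 was called higher and 3 lower at 24 h in WT and 3 and 4 in KO. Beside both lists, the all-gene shares at 24 h were 7.54% higher and 7.47% lower in WT and 9.24% and 9.33% in KO. Genes of the TLE family moved apart. Tle4 rose by 0.82 in WT and 0.89 in KO, while Tle3 fell by 0.67 and 0.75. Aes (Tle5), a short family member, fell by 0.59 and 0.64 and again by 1.33 and 1.17 from 24 h to 48 h.

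**Figure D5:**
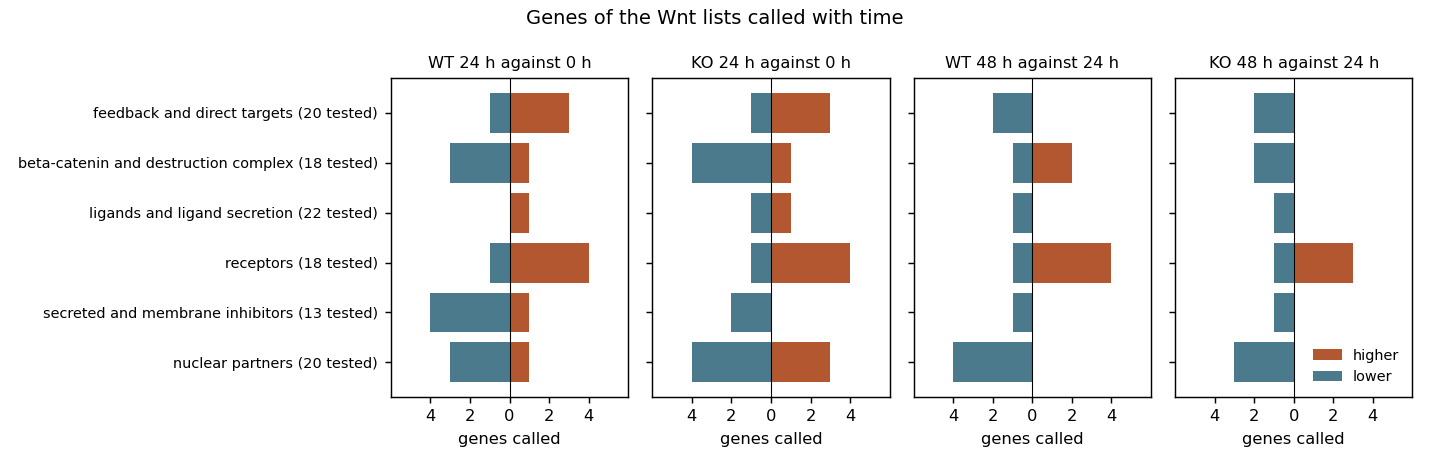
Genes called higher (right) and lower (left) with time in each role list of the pathway, with the number tested in brackets, for both genotypes and both intervals (x axis, number of genes at an adjusted p under 0.05). Receptors are called higher more often than lower in all 4 panels, 4 or 3 against 1 of 18 tested. Inhibitors are called lower more often than higher, at 48 h by Sfrp1 alone of 13 tested in each genotype. Over all genes 3.28% to 9.24% were called higher and 4.86% to 9.33% lower in these comparisons. Some of these calls were lost under alternatives, Dkk3 (WT, 24 h) under 15 of 20 and Fzd4 (WT, 48 h) under 10, while those of Sfrp1 were lost under 0.

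Between the genotypes few genes of these lists were called: 0 higher and 2 lower of 114 at 0 h, 0 and 1 at 24 h, and 1 and 1 at 48 h, shares of 1.8%, 0.9% and 1.8% beside 1.26%, 1.46% and 0.671% of all genes. Averaged over the times 4 were higher and 4 lower, 7.0% of those tested beside 5.03% of all genes. Without KO 24 h replicate 1 the total at 24 h was 2 and over all times 12, and without replicate 2 these were 20 and 18. Hdac2, a histone deacetylase of co-repressor complexes, was lower in KO at each time, 221 and 251 against 162 and 164 CPM at 0 h, 167 and 187 against 112 and 132 CPM at 24 h and 151 and 156 against 101 and 101 CPM at 48 h. The differences were -0.53, -0.54 and -0.60 log2 units (adjusted p = 0.0024, 0.0028 and 0.0014). These single-time calls were lost with transcript lengths as offsets and in limma on TPM, the 0 h call also without WT 0 h replicate 2 or KO 0 h replicate 1, and the 24 h call without WT 24 h replicate 2 (ranges -0.44 to -0.61 and -0.43 to -0.65). Averaged over the times the Hdac2 difference was -0.56 (adjusted p = 8.3e-07, edgeR). That call held under all 20 alternatives, at -0.60 to -0.52.

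Ccnd1 was higher in KO at 48 h, 242 and 261 against 173 and 197 CPM (0.44 ± 0.080, adjusted p = 0.0095), a call lost without WT 48 h replicate 1 or KO 48 h replicate 2, with transcript lengths as offsets and in both limma fits on TPM (0.35 to 0.53 over the alternatives). It was also higher over all times (0.32 ± 0.046, adjusted p = 0.00019). Shisa2, which holds Frizzled receptors back in the cell, was lower over all times (-0.51 ± 0.10, adjusted p = 0.0043), a call lost with transcript lengths as offsets and in limma on TPM. The difference between the genotypes in the change with time was called for 0 of the 114 genes by edgeR in either interval, with 2 and 5 at an unadjusted p under 0.05 and 0 by DESeq2. Of all 17424 genes tested, 1029 and 894 had an unadjusted p under 0.05 in edgeR.

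Beta-catenin also links cadherins to the cytoskeleton, and of 7 adhesion genes 2 were called higher and 1 lower at 24 h in each genotype. The all-gene shares were 7.54% higher and 7.47% lower in WT and 9.24% and 9.33% in KO. Cdh1, E-cadherin, rose over 48 h, WT libraries going from 366 and 364 to 782 and 777 CPM and KO libraries from 378 and 373 to 936 and 923 CPM. Cdh2, N-cadherin, rose from 24 h to 48 h by 0.99 ± 0.20 log2 units in WT and 1.46 ± 0.21 in KO, the WT call being lost without WT 24 h replicate 1, with transcript lengths as offsets and in both limma fits on TPM (0.74 to 1.02 over the alternatives).

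Of 8 naive pluripotency genes that Tcf7l1 is known to repress, 7 in WT and 8 in KO were called lower at 24 h, when Tcf7l1 was at its highest mean, and 7 in each genotype at 48 h, with 0 called higher. Over all genes 7.47% in WT and 9.33% in KO were called lower at 24 h, and 4.86% and 5.37% at 48 h. The median changes at 24 h were -1.37 log2 units in WT and -1.46 in KO. Tfcp2l1 fell from 416 and 445 CPM in WT ESCs to 39.2 and 42.1 CPM at 48 h, while KO libraries went from 425 and 414 to 26.3 and 33.7 CPM. Klf4 was higher in KO at 0 h, 512 and 492 against 371 and 351 CPM (0.47 ± 0.087, adjusted p = 0.0058), and at 24 h (0.42 ± 0.088, adjusted p = 0.017), and both calls were lost with transcript lengths as offsets and in limma on TPM. The 0 h call was also lost without WT 0 h replicate 2 or KO 0 h replicate 1 (0.44 to 0.54), and the 24 h call without either WT 24 h library (0.38 to 0.47). Withdrawal of LIF, the change to spheroid culture and the level of Tcf7l1 moved together, and their parts in these changes cannot be told apart.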

How the data were processed

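The authors used Trimmomatic 0.33 for read trimming and kallisto 0.43.1 for transcript quantification, per the labels on mm10/GRCm38; the transcript set and strand setting are not given in the sources used here. The deposited values are estimated counts, not normalized, and the authors' TPM, scaled by effective length. Of 115270 transcripts, 113580 (98.5%) matched GENCODE M21 and were summed to 35580 genes; the others held 0.659% to 0.709% of counts. Rounded sums were tested with edgeR 4.0.16 (TMM, filterByExpr, quasi-likelihood, 6 groups, 17424 genes tested, adjusted p under 0.05, Benjamini-Hochberg); limma 3.58.1 and DESeq2 1.42.0 in R 4.3.3 gave alternatives. Transcript shares had an exact permutation test. Scripts were tested on simulated data. Genes and lists were chosen with earlier results of these data known. List genes were named where called, up to 3 per list and comparison by size of change at an average log2 CPM of at least 0, plus the most abundant by TPM. Overlapping genes and similar transcripts share reads, so transcript values are uncertain. The labels do not say whether replicates were separate cultures, but the study's supplement describes them as independent biological replicates; p-values measure the spread between these samples. Replicate numbers did not pair libraries (correlations of deviations -0.049 to 0.051).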

Additional observations from a re-analysis of the deposited data

How the results depend on the processing

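Of 1390 values of the 7 genes under 20 alternatives, 18 lost and 9 gained a call, and 72 changed sign, all between values of which neither was called. None of those that changed sign was above 0.61 in size in the main fit. Under alternatives they could be larger: Sp5 in WT from 0 h to 24 h went from -0.04 to as much as 0.83 with a library left out. Transcript lengths as offsets, or limma on log2(TPM + 1) or log2(TPM + 0.1), left 1 call from 0 h to 24 h in each genotype and 0 between genotypes over all times. DESeq2 gave 1 at 48 h and 3 over all times, at least 10 counts in every library gave 2 over all times, and no filter on low counts gave 2 in KO from 24 h to 48 h. With single libraries left out the calls of the 7 genes ran from 1 to 2 in WT and 2 to 3 in KO at 24 h, 1 to 2 in KO at 48 h and 0 to 2 over all times.

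For the 114 pathway genes, lengths as offsets, log2(TPM + 1) and log2(TPM + 0.1) gave 10, 8 and 7 calls in WT from 24 h to 48 h, 8 and 8 in KO for the first and last, and 1, 1 and 1 between genotypes at 0 h, 0 at 24 h and 48 h, and 3, 3 and 3 over all times. At 24 h between genotypes DESeq2 gave 3, no filter 4 and the stricter filter 2, and DESeq2 gave 13 over all times. With single libraries left out, calls in WT ran from 15 to 29 at 24 h and 9 to 22 at 48 h, in KO from 18 to 42 and 7 to 30, and between genotypes from 0 to 4 at 0 h, 0 to 20 at 24 h, 1 to 2 at 48 h, 3 to 18 over all times, 0 to 4 for the difference in change to 24 h and 0 to 6 for that to 48 h. The highest of these for KO changes (42 and 30), for 24 h, for all times and for both differences in change came without KO 24 h replicate 2, which leaves that arm with the library that stood apart, its lone sample assumed to vary like the other groups. The cause of the other moves was not tested. Of 113 calls of other named genes, 59 held under all 20 alternatives.

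The Lef1-202 share difference ran from -15.4 to 6.5 points, with 0.9, 0.3 and 6.5 where it changed sign. With a replicate block the members' counts were unchanged, 24 and 27 pathway genes were called at 24 h in WT and KO, and 18 and 15 at 48 h. The numbers did not pair the libraries. Sp5 rests on 0 to 61 counts per library, around the floor of 3 counts.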
